A study of Mus musculus with 2 samples.

Results

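The genes described here are 10 members of the IL-6 receptor, STAT and SOCS group, namely the receptor chains Il6ra, Il6st and Osmr, the transcription factors Stat3, Stat5a and Stat5b, and the feedback inhibitors Socs1, Socs2, Socs3 and Cish. They were chosen by name, and every spot on the array that is not a control and carries 1 of these names was read. This gave 33 spots of 43020 and 15 probes of 39429, for 10 genes of 30175 names on the array. All 15 probes passed the spot filter, no member spot was marked as an outlier and none was saturated.

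The study compared mature hepatocytes (MHs) with Sox9+EpCAM- biphenotypic hepatocytes, to look for markers of hepatocytes that gain features of bile duct cells in injured liver. MHs came from normal liver and were enriched by Percoll gradient centrifugation, with no sorting. Sox9+EpCAM- cells came from livers injured by DDC, a diet that damages bile ducts, and were sorted as GFP+EpCAM- cells by FACS. According to the methods, both livers were of Sox9-EGFP mice, in which GFP reports Sox9. The age of the mice and the number pooled for each RNA are not given in the sources used here, and a feeding period is stated for cells compared by quantitative PCR but not separately for the array RNA. Total RNA of each population was hybridised to 1 Agilent array with Cy3 as the single dye. With 1 array per group, no difference has a replicate check, an SD between mice or a test, and precision is limited by having so few arrays. Values below describe these 2 RNA samples.

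Some features of the samples bear on what follows. Both samples are labelled male, but of 2 Xist probes 2 were above background in the MH sample and 0 in the Sox9+EpCAM- sample. Of 5 probes for the Y-linked genes Ddx3y, Kdm5d, Eif2s3y and Uty, 0 exceeded background in the MH sample and 4 in the Sox9+EpCAM- sample. The MH array thus went against its label, and differences of sex, diet and isolation between the populations cannot be told apart. The hepatocyte label was met on both arrays, since all 13 hepatocyte markers on the array were above background on each of them, with Hnf4a at an intensity of 4990 in MHs and 6360 in Sox9+EpCAM- cells. Epcam, the antigen that the sort selected against, had an intensity of 139 in MHs and 2770 in Sox9+EpCAM- cells. This value goes against the label, which is kept here as the name of the sample.

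IL-6 binds IL-6 receptor alpha, encoded by Il6ra, and the complex recruits gp130, encoded by Il6st, which carries the signal into the cell. Janus kinases bound to gp130 then phosphorylate STAT3, which enters the nucleus and switches on genes that include its own inhibitor Socs3. In the liver this route drives the acute phase response and takes part in regeneration, and oncostatin M acts through gp130 paired with the receptor encoded by Osmr. STAT5a and STAT5b are activated mainly by growth hormone and prolactin receptors and induce Cish and Socs2. Growth hormone acting through STAT5b sets much of the sex difference in liver gene expression.

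STAT dimers bind the palindrome TTCNNNGAA, and 2 of the 11 RefSeq promoters of the members hold it, those of Cish and Socs3. The promoter table (GRCm38.p6) covers 250 bases before to 50 bases after the start of a gene and holds 9 of the 10 members. Socs2 was not matched. The motif reads the same on both strands, and 8.30% of all 32851 promoters in the table hold at least 1 match. Both promoters are shown here, 5′ to 3′ up to 30 bases after the start, because their genes are feedback targets of the pathway and stood at different places in the comparison. Capitals mark each match.
Cish, chr9:107296409-107296688, plus strand: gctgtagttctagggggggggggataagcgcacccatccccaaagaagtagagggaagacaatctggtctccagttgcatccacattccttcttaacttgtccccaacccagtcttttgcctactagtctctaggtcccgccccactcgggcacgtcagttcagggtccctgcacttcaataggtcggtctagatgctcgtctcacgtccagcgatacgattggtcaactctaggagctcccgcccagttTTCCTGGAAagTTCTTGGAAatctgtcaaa
Socs3, chr11:117969337-117969616, minus strand: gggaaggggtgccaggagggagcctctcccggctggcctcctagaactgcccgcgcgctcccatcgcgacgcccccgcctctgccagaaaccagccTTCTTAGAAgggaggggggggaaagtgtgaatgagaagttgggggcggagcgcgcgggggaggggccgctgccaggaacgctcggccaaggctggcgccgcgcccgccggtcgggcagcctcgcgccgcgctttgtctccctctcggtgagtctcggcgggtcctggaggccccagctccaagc

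The Cish promoter held 2 matches, TTCCTGGAA from base 251 and TTCTTGGAA from base 262, counted from 1 at the 5′ end. In the Socs3 promoter the single match, TTCTTAGAA, began at base 97. A search for the AP-1 motif TGANTCA, the binding site of Fos and Jun dimers, found 1 match among the 11 member promoters. It lay in that of Osmr, as TGATTCA from base 254, and 7.81% of all promoters hold this motif. No member promoter held both motifs. The matches in Cish and Osmr begin past the 250 bases before the start, and that in Socs3 begins within them. A match describes the letters in this window and not a site in use.

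**Figure D1:**
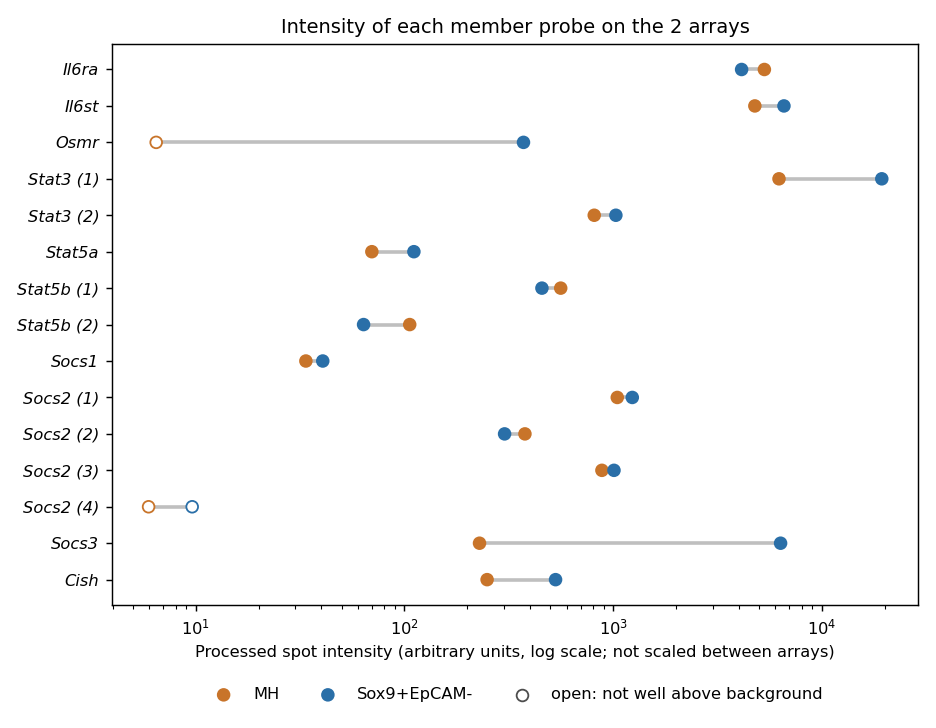
Processed spot intensity of each of the 15 member probes on a log axis, in MHs (orange) and Sox9+EpCAM- cells (blue), with open circles where a probe was not well above background. Intensities are not scaled between the arrays, and numbers in brackets separate probes of 1 gene. Socs3 and Osmr have the longest lines, from 229 to 6350 and from 6.46 to 372.

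Intensities were divided by the 75th percentile of their array, 741 for MHs and 1110 for Sox9+EpCAM- cells, and a difference is the log2 value of Sox9+EpCAM- cells minus that of MHs. Socs3 and Osmr exceeded MHs at least 4-fold, and 0 members were at least 4-fold lower. These 2 of 10 members make 20%, against 5.59% of the 23417 genes above background on at least 1 array that were at least 4-fold higher and 5.57% that were at least 4-fold lower. At 2-fold, Stat3 joined them through its brighter probe, so that 3 members (30%) were higher and 0 lower, against 14.2% and 16.7% of all genes. The other 7 members, that is 70%, lay within 2-fold and 5 within 1.5-fold of equality. Of all genes measured on both arrays, 49.3% lay within 1.5-fold. The median log2 difference of the members was -0.02 with Osmr at its bound, and -0.12 over the 9 members measured on both arrays. The same median over all 19232 genes measured on both arrays was -0.19. The median of the members was thus close to that of all genes, and the large differences lay in 2 of them.

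The receptor chains that define IL-6 signalling were close to equal or lower. Il6st, the signal-transducing chain shared by the whole cytokine family, had an intensity of 4780 in MHs and 6590 in Sox9+EpCAM- cells, which makes a log2 difference of -0.12. Its level was therefore nearly the same in both once the arrays were scaled. The sign of so small a difference changed with the scaling, and 3 of 11 alternative settings gave a value above 0. Il6st was read by 1 probe, at chr13:113296586-113296645 of mm9, the genome build of the array design.

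Il6ra, the chain that gives hepatocytes their own response to IL-6, was lower in Sox9+EpCAM- cells. Its probe at chr3:89674054-89674113 had an intensity of 5310 in MHs and 4130 in Sox9+EpCAM- cells. After scaling this was 0.519 of the MH level, a log2 difference of -0.95, just inside 2-fold. All 11 alternative settings gave a lower value in Sox9+EpCAM- cells, from -1.12 to -0.67. Among the genes measured on both arrays, Il6ra stood at the 18.9th percentile of the differences and Il6st at the 54.0th.

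Osmr, the receptor chain for oncostatin M, differed from both other receptor chains in being clearly higher in Sox9+EpCAM- cells. Its probe at chr15:6763686-6763745 had a processed intensity of 6.46 in MHs and 372 in Sox9+EpCAM- cells. On the MH array it was not well above background, with a mean spot signal of 41.1 beside a local background of 24.5. Osmr therefore has only a bound, a level in Sox9+EpCAM- cells at least 8.93-fold higher, or at least 3.16 on the log2 scale. Taken without the bound, the processed intensities gave 5.26, and with normexp background correction, which adds an offset of 50 to every signal, the value was 1.75, below 4-fold. Osmr was higher under each of the 10 alternative settings that gave it a value, but how much higher depends on how a dim spot is treated.

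**Figure D2:**
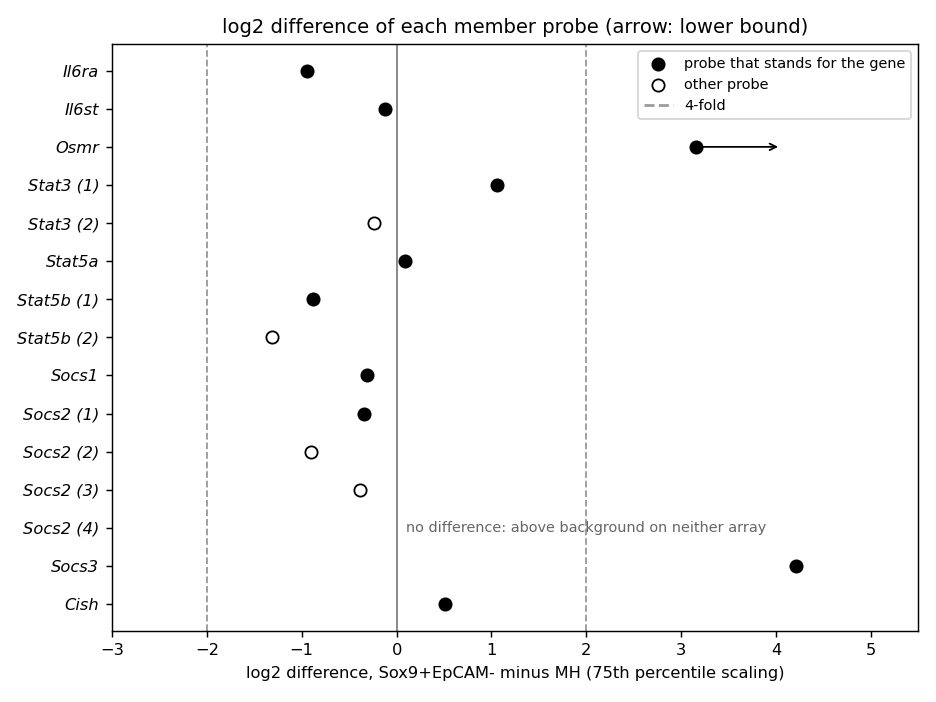
The log2 difference of each member probe, Sox9+EpCAM- minus MH, with filled circles for the probe that stands for its gene, open circles for other probes and an arrow for the lower bound of Osmr. Dashed lines mark 4-fold. Socs3 at 4.21 and Osmr at 3.16 or more lie beyond the upper line, no probe lies beyond the lower line, and the 2 probes of Stat3 fall on opposite sides of 0.

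Stat3, the main transcription factor downstream of gp130, was read by 2 probes that differed from each other. The brighter one, at chr11:100759946-100760005 on the minus strand, had an intensity of 6240 in MHs and 19400 in Sox9+EpCAM- cells, 2.08-fold higher or 1.05 on the log2 scale. It stood at the 89.0th percentile of the genes measured on both arrays. The other probe, at chr11:100749598-100749657, lies 10288 bases away towards the 3′ end of the gene and was printed in 10 spots on each array. Its mean intensity was 812.2 in MHs and 1031.2 in Sox9+EpCAM- cells, which makes a log2 difference of -0.24, with an SD between spots of 0.05 and 0.06 on the log2 scale. One probe thus read higher Stat3 in Sox9+EpCAM- cells and the other a level within 1.5-fold of that in MHs. The gap between the probes was larger than the spread between spots, and whether it reflects transcript forms was not tested.

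None of the 15 member probes, those of Stat3 included, has a run of 20 bases in common with any probe designed for a different gene.

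Stat5a and Stat5b lie next to each other and to Stat3 on chromosome 11, in the RefSeq order Ghdc, Stat5b, Stat5a, Stat3 and Cavin1. Stat5b, the STAT that carries most growth hormone signalling in hepatocytes, had an intensity of 561 in MHs and 456 in Sox9+EpCAM- cells at chr11:100642187-100642246. This was 0.543 of the MH level, a log2 difference of -0.88. The dimmer probe of Stat5b, at chr11:100642045-100642104, had 106 in MHs and 63.7 in Sox9+EpCAM- cells, 0.401 of the MH level or -1.32 on the log2 scale. Both Stat5b probes were thus lower in Sox9+EpCAM- cells, and all 11 alternative settings of the gene lay between -1.10 and -0.62.

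Stat5a, its close relative and the main prolactin-activated STAT in the mammary gland, was dim on both arrays. The probe at chr11:100746373-100746432 had an intensity of 69.8 in MHs and 111 in Sox9+EpCAM- cells, which makes a log2 difference of 0.09. It was thus nearly equal in both populations, with a sign that 3 of 11 alternative settings turned. The 3 STAT genes of this cluster therefore showed 3 different values, with Stat3 higher by 1 probe, Stat5a nearly equal and Stat5b lower. For scale, probes printed in at least 8 spots had a median SD between spots of 0.08 on the log2 scale on each array, and those with a mean intensity under 100 had 0.17.

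Socs3 showed the largest measured difference among the members. It encodes the inhibitor that binds gp130 and shuts off the Janus kinases after IL-6 stimulation. The intensity of its probe at chr11:117827480-117827539 was 229 in MHs and 6350 in Sox9+EpCAM- cells, 18.5-fold higher or 4.21 on the log2 scale. Both values were well above background and neither spot was saturated. Socs3 stood at the 99.7th percentile of the genes measured on both arrays, and its value ranged from 3.89 to 4.48 over 11 alternative settings.

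Socs1, Socs2 and Cish did not follow Socs3. Socs1, an inhibitor best known for restraining interferon signalling, was dim on both arrays, with an intensity of 33.7 in MHs and 40.6 in Sox9+EpCAM- cells at chr16:10783951-10784010. Its log2 difference was -0.31, close to that of the median gene. Values this near the lowest intensity well above background, which was 27.8 in MHs and 18.4 in Sox9+EpCAM- cells, carry the wider spot spread given above.

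Socs2, an inhibitor of growth hormone receptor signalling, was read by 4 probes on chromosome 10. The brightest, printed in 10 spots at chr10:94875066-94875125, had a mean intensity of 1047.3 in MHs and 1236 in Sox9+EpCAM- cells. Its log2 difference was -0.34, with an SD between spots of 0.05 in MHs and 0.04 in Sox9+EpCAM- cells. The probe at chr10:94875187-94875246 had 378 in MHs and 302 in Sox9+EpCAM- cells, a difference of -0.91. At chr10:94875468-94875527 the values were 884 in MHs and 1010 in Sox9+EpCAM- cells, a difference of -0.39. All of these Socs2 probes pointed the same way, to a lower level in Sox9+EpCAM- cells, by 1.27-fold to 1.87-fold. The last probe, at chr10:94848005-94848064, was not well above background on either array, with 5.94 and 9.61, and has no difference.

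Cish, the other STAT5-induced inhibitor, was somewhat higher in Sox9+EpCAM- cells. The probe at chr9:107204196-107204255 had an intensity of 249 in MHs and 530 in Sox9+EpCAM- cells, 1.42-fold higher or 0.51 on the log2 scale. All 11 alternative settings gave a value above 0, from 0.33 to 0.77. The genes whose promoters are shown above, Cish and Socs3, were 1.42-fold and 18.5-fold higher. Whether the motifs take part in these values was not tested.

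**Figure D3:**
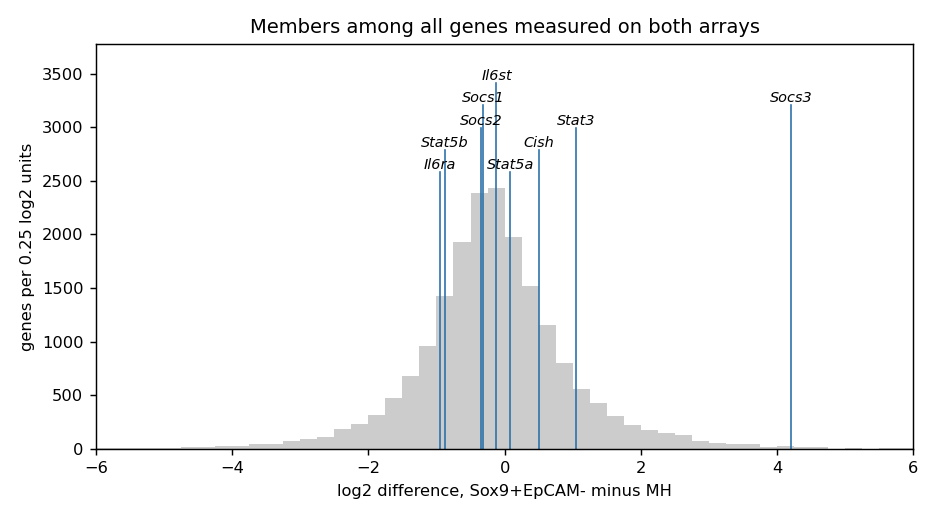
Number of genes per 0.25 log2 units of difference, Sox9+EpCAM- minus MH, for the 19232 genes measured on both arrays, with a line at each of the 9 members measured on both. The line heights only separate the names. All lines but 1 fall in the bulk of the histogram between -0.95 and 1.05, and that of Socs3 lies in the right tail at 4.21.

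The other genes of the JAK-STAT pathway were read from 7 lists with 49 genes in all, of which 46 were above background on at least 1 array. Of these, 3 (6.52%) were at least 4-fold higher and 5 (10.9%) at least 4-fold lower, against 5.59% and 5.57% of all genes. At 2-fold, 10 (21.7%) were higher and 6 (13.0%) lower, against 14.2% and 16.7%. With normexp, Ctf2, Socs7, Ebi3 and Jak3 no longer passed 4-fold, so both 4-fold counts were smaller. The median log2 difference of the 38 measured on both arrays was 0.11, against -0.19 over all genes. As for the members, the brightest probe stands for a gene, and other probes of the pathway genes and STAT targets named below are given where they differ in sign or by over 1.5-fold. Those of the other lists were not compared probe by probe.

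Among 11 IL-6 family ligands, Il6 itself was not well above background on either array, with 6.19 in MHs and 4.16 in Sox9+EpCAM- cells. Cntf was also below background on both, and Lif, Osm and Ctf1 were above it in Sox9+EpCAM- cells alone and too dim for a bound. Clcf1, a ligand of the ciliary neurotrophic factor receptor, went from 504 to 4300, a log2 difference of 2.51. Ctf2, a cardiotrophin, went from 17.1, a background level, to 211, a difference of at least 2.34. Ebi3, a subunit of IL-27 and IL-35, went from 86 to 5.05, below background, a difference of -2.81 or lower. Of the ligands measured on both arrays, Clcf1 thus had the largest difference, while no signal of Il6 was detectable on these arrays. With normexp, Ctf2 was at 1.15 and Ebi3 at -1.54, both within 4-fold. Il11 had a bound of 0.37 and Il27 a difference of -0.44.

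Of the other receptors of the gp130 family, 2 were over 2-fold lower and 2 nearly equal. Lifr, which pairs with gp130 to bind leukemia inhibitory factor and also serves oncostatin M, had 15900 in MHs and 4520 in Sox9+EpCAM- cells, which makes a log2 difference of -2.40. Its other probes gave -1.44 and -0.15, so the 4-fold call rests on the brightest. Il11ra1, the IL-11 receptor, went from 6470 to 3430, a difference of -1.50. Cntfr at 0.00 and Il31ra at 0.06 were nearly equal, with signs that depended on the scaling, and a second Il31ra probe was at 0.67 or more. Il27ra was above background in Sox9+EpCAM- cells alone, at 23.9, and too dim for a bound. None of the 4 genes with a value was 2-fold higher, while Osmr was at least 8.93-fold higher.

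Growth hormone and prolactin receptors, which signal through STAT5, were lower. Prlr had 38500 in MHs and 5890 in Sox9+EpCAM- cells, which makes a log2 difference of -3.29, and Ghr 3590 and 1070, a difference of -2.33. A second Ghr probe gave -2.63. Lepr, the leptin receptor, was at -0.90 by its brightest probe, with 0.95 by another. In the same list of 12 receptors, Il22ra1 at 1.65, Il10rb at 1.57 and Ifngr2 at 1.51 were the highest, but with normexp they were at 1.02, 1.10 and 0.75 and Ifngr2 was no longer among the top 3. Il22ra1 and Il10rb together form the receptor of IL-22, another activator of STAT3 in hepatocytes, and a second Il22ra1 probe gave 0.37.

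The Janus kinases differed among themselves. Jak1, the kinase that gp130 needs most, had 739 in MHs and 1920 in Sox9+EpCAM- cells, a difference of 0.79, and Tyk2 had 562 and 1280, a difference of 0.60. Jak2, which serves the growth hormone receptor, was dim, at 37.6 and 32.4, with a difference of -0.80. Jak3, mostly known from lymphocytes, was at -2.20 by its brighter probe and -0.57 by the other. Among other STAT genes, Stat2 was at 0.08 and Stat6 at 0.32, with other Stat6 probes at 0.60 and -0.15. Stat4 was at 1.97 or more, but at 0.78 after normexp correction.

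By their brightest probes, all 4 remaining SOCS genes were higher in Sox9+EpCAM- cells, with a median log2 difference of 1.15. Socs7 had 55.6 in MHs and 403 in Sox9+EpCAM- cells, a difference of 2.27, which was 1.25 after normexp correction. Socs6 went from 744 to 2860, a difference of 1.36, Socs4 was at 0.94 and Socs5 at 0.42. The other probes of Socs6 did not read alike, since 1 was at 0.87, 1 was above background on neither array, and 1 was above background in MHs alone, at 39.2 against 15.9, a difference of -1.67 or lower. The 4 genes stayed above 0 under every one of the 11 alternative settings. The 9 PIAS proteins and phosphatases, which restrain STATs and Janus kinases by other means, were within 2-fold by their brightest probes, from -0.97 for Pias3 to 0.97 for Ptpn11, with a median of 0.03. Dimmer probes did not all read alike, with Pias1 at -2.10, Sh2b3 at -1.75 against 0.58 for its brightest probe, and Pias3 at 0.79.

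**Figure D4:**
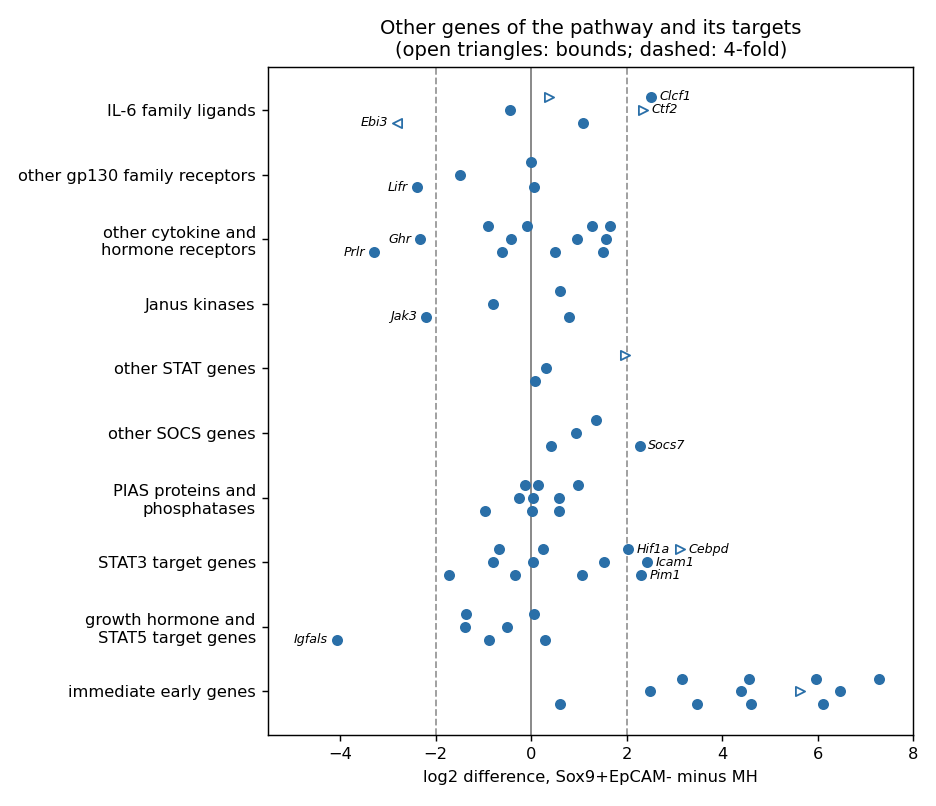
The log2 difference, Sox9+EpCAM- minus MH, of each gene in the 7 further pathway lists, in the STAT3 and STAT5 target lists and among the immediate early genes, with open triangles for bounds pointing away from 0 and dashed lines at 4-fold. Genes past 4-fold are named except in the bottom row, where 11 of 12 immediate early genes lie to the right of the line.

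Known target genes of STAT3 were mixed. Of 12, 4 (33.3%) were at least 4-fold higher and 0 at least 4-fold lower, against 5.59% and 5.57% of all genes. The median log2 difference was 0.66 with bounds. The count of 4 was 2 with normexp and 3 or 4 under the other alternatives. Pim1, a kinase that promotes survival, went from 1430 to 10600, a difference of 2.31, and Icam1, an adhesion molecule, from 1730 to 13900, a difference of 2.42. Cebpd, a transcription factor of the acute phase, was not well above background in MHs at 5.63 and had 363 in Sox9+EpCAM- cells, at least 3.12, or 1.87 after normexp correction. Hif1a was at 2.03, and at 0.93 after normexp correction, with a dimmer probe at 0.26 or more. Ccnd1 at -0.79, Vegfa at -0.68 and Birc5 at -1.72 were lower, but a dimmer probe of Vegfa was at 0.42, and those of Birc5 were at -0.67 and at 1.66 or more.

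Acute phase proteins, the classical output of IL-6 in hepatocytes, were mixed. Of 24 on the array, 23 were above background. At 4-fold 1 (4.35%) was higher and 1 (4.35%) lower, close to the 5.59% and 5.57% of all genes. At 2-fold 1 (4.35%) was higher and 7 (30.4%) lower, against 14.2% and 16.7%. There were 8 above 0 and 15 below. Their median log2 difference was -0.58, against -0.19 over all genes measured on both arrays. Lcn2, which binds bacterial iron carriers, went from 548 to 7360, a difference of 3.16, and Saa4, a form of serum amyloid A made constitutively, from 39900 to 9050, a difference of -2.72. Il1rn was at 0.74, Saa3 at 0.66, Apcs at -1.69 and Orm2 at -1.53. After quantile normalization the median was -0.04 and 11 of the 23 were above 0, so the balance of the list depends on the scaling. How these values relate to that of Socs3 was not tested.

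Targets of growth hormone and STAT5 had a median log2 difference of -0.87, against -0.19 over all genes measured on both arrays. Of 8 genes 7 were above background, 2 above and 5 below 0. At 2-fold 0 were higher and 3 (42.9%) lower, against 14.2% and 16.7% of all genes. After quantile normalization 3 were above and 4 below 0, with a median of -0.41, and the median of all probes also gave 3 and 4. Igfals, which encodes the acid-labile subunit that carries IGF-1 in blood, had 4800 in MHs and 428 in Sox9+EpCAM- cells, a difference of -4.07. Igf1 had 12300 and 7060, a difference of -1.38, and its 4 other probes lay between -2.22 and -0.82. Bcl6, which growth hormone represses, was at 0.28 and among the 2 above 0, so the sign counts mix induced and repressed targets.

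The sex difference between the arrays lies beside these values. Of 15 female-biased liver genes on the array, 13 (86.7%) were at least 4-fold below MHs, against 5.57% of all genes. Their median log2 difference was -6.05 with bounds, and normexp gave 12 genes and -4.77. Cyp2b9 had 28400 in MHs and 272 in Sox9+EpCAM- cells, which makes a log2 difference of -7.29, and Cyp3a16 was at -7.39 and Cyp2b13 at -6.39. Acot3 at -0.72 and Cyp4a14 at 0.83 were the exceptions. Of 10 male-biased genes 8 were above background, with 4 above and 4 below 0 and a median of -0.14 with bounds. Slco1a1 was the highest of those measured on both arrays, at 1.45, and Cyp7b1 the lowest, at -2.34. Whether sex takes part in the values of Stat5b, Socs2, Cish, Prlr and the STAT5 targets was not tested, and sex, diet and isolation cannot be told apart here.

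Immediate early genes, which cells switch on within minutes of stress or dissociation, differed in the same direction as Socs3. Of 12, 11 (91.7%) were higher by at least 4-fold in Sox9+EpCAM- cells, against 5.59% of all genes. All 12 were above 0, with a median log2 difference of 4.58. Their summed level went from 36.1 to 423 times the 75th percentile. Ier3 went from 47 to 11000, a difference of 7.29, Fosb from 393 to 51800, a difference of 6.46, and Junb from 125 to 13000, a difference of 6.12. Dusp1 was the smallest, at 0.60. Socs3 at 4.21 lay within the range of these genes, and Sox9+EpCAM- cells were sorted while MHs were not. The part of cell handling in the value of Socs3 was not tested.

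In bulk RNA, fewer cells of a type and less RNA per cell cannot be told apart, and markers of other cell types also differed between the arrays. Of 12 fibroblast and stellate cell markers 11 were above background. In Sox9+EpCAM- cells 6 (54.5%) were higher by at least 4-fold and 1 (9.09%) lower, against 5.59% and 5.57% of all genes. The summed level of the list went from 12.9 to 55.3 times the 75th percentile. Col3a1 had 175 in MHs and 22300 in Sox9+EpCAM- cells, and without Dcn the sum went from 1.96 to 41.8. The stellate cell genes were mixed, as Des had 190.2 and 304.2 and Acta2 85.6 and 171.1, Lrat was above background in MHs alone and Pdgfrb on neither array. Fibroblasts and stellate cells also express Osmr and Socs3. The gate took GFP+EpCAM- cells, which would leave out cells without Sox9-driven GFP, and the part of fibroblasts and stellate cells in these values was not tested.

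Cholangiocyte markers were mixed, with 2 of 12 (16.7%) at least 4-fold higher and 0 lower, against 5.59% and 5.57% of all genes. The 2 were Spp1 at 6.93 and Epcam at 3.73. The summed level of the list was 4.55 in MHs and 51.0 in Sox9+EpCAM- cells. In Sox9+EpCAM- cells most of that sum was Spp1, and without it the level was 4.20 in MHs and 8.61 in Sox9+EpCAM- cells. Aqp1 at -1.37, Prom1 at -1.20 and, just past the size, Cftr were at least 2-fold lower. The keratins Krt7 at -0.23 and Krt19 at 0.42 were within 1.5-fold. Sox9 itself was dim, at 8.87 in MHs, not well above background, and 60.7 in Sox9+EpCAM- cells, at least 0.53.

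Most leukocyte and endothelial markers were lower in Sox9+EpCAM- cells. Of 13 leukocyte markers 5 (38.5%) were at least 4-fold lower and 1 (7.69%), Cd68 at 3.85, at least 4-fold higher. Over all genes these shares were 5.57% and 5.59%. The summed level of the leukocyte markers was 158 in MHs and 92.3 in Sox9+EpCAM- cells. Most of that sum was Itgam, and without it the level was 33.9 in MHs and 15.9 in Sox9+EpCAM- cells, with Emr1 at -4.33 and Cd74 at -3.07 the lowest. C1qc was not above background in Sox9+EpCAM- cells. Of 9 endothelial markers 8 were above background. All 8 were below 0 and 5 (62.5%) at least 4-fold lower, against 5.57% of all genes. Their summed level was 11.2 in MHs and 2.62 in Sox9+EpCAM- cells, where Cdh5 was not above background. Lyve1 was above background on neither array. Hepatocyte markers were lower too, with 13 of 13 below 0 and a median of -1.02, from Hnf4a at -0.23 to Cyp3a11 at -8.58. After quantile normalization 11 were below 0, with a median of -0.47, and with scaling to Gapdh 12 were. None of them was below background, and their summed level was 1661 in MHs and 739 in Sox9+EpCAM- cells. For the array RNA the stated gate was GFP+EpCAM-, and an analysis of DDC feeding in the same study took CD31-CD45- cells first, which would leave out leukocytes and endothelial cells. MHs had no such gate. The part of cell composition in the member values was not tested.

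**Figure D5:**
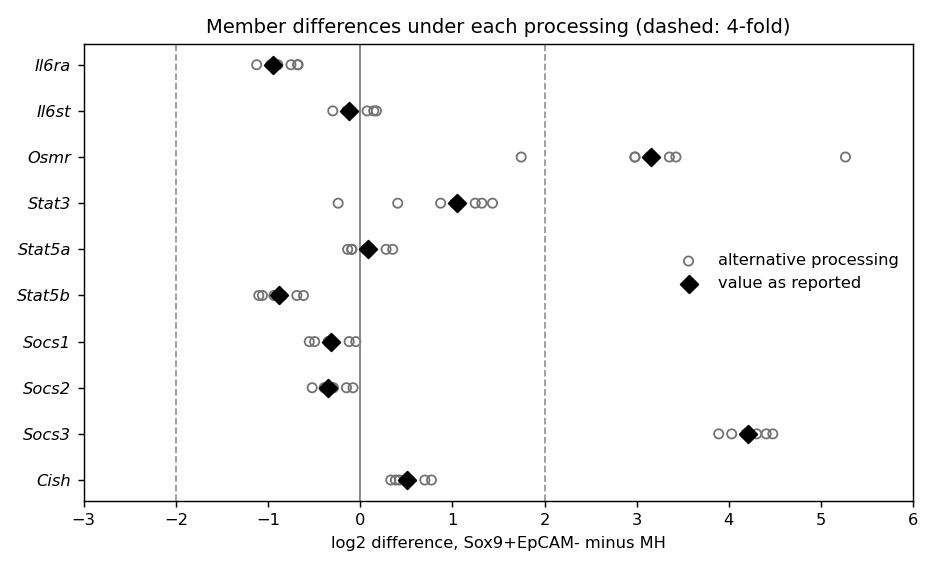
The log2 difference of each member, Sox9+EpCAM- minus MH, as reported (diamonds) and under each alternative processing (open circles), with dashed lines at 4-fold. Socs3 stays between 3.89 and 4.48, Osmr spreads from 1.75 to 5.26, and Stat3 spreads from -0.24 to 1.44.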

How the data were processed

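Total RNA of MHs and Sox9+EpCAM- cells was compared on 2 one-colour Agilent mouse arrays, 1 per group, and samples were grouped by their labels. The authors deposited the processed spot intensity that Feature Extraction 10.7.3.1 wrote per the file headers, with the background subtracted and no scaling between arrays, together with mean and local background intensities and spot flags. They also deposited a table of ratio values. Set against the scanner intensities, it divides each intensity by the array's median (with an SD of 0.0018 for the log2 factor of either array).

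Control spots and outlier spots were left out, intensities were divided by the 75th percentile of the array and taken to log2, and replicate spots were averaged by probe. A probe counted as above background where most of its spots had the scanner's flag. The probe with the highest mean log2 value stands for its gene. A probe above background on 1 array only was given a bound, with the other array set to its lowest signal above background, or to the probe's own signal where that was higher, and a bound under 1-fold gave no difference. Genes were counted at 4-fold, and a value that changed over 1.5-fold was called moved. The members and the 18 gene lists were chosen with earlier results of these data known. Every member was named with every probe, the ligand, gp130 receptor, Janus kinase, STAT and SOCS genes were open to naming, and of the other lists the 3 highest and 3 lowest genes on both arrays and those past 4-fold. Itgam, Krt7, Krt19, Sox9, Pdgfrb and Lyve1 lie outside this rule and were named after their values were seen.

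All 10 member names are current RefSeq symbols. Probe positions are those of the array design on mm9, and exons were not annotated. The alternatives were normexp (limma 3.58.1 in R 4.3.3), quantile normalization, scaling by Gapdh or by the median probe above background, a median over a gene's probes, outlier spots kept, the deposited table, no bound, a restriction to genes measured on both arrays, and 2-fold or 10-fold as the size. The probe with the most spots and values relative to the median of all genes were added after the data were seen. Python 3.11.15, pandas 2.3.3, numpy 2.4.6 and matplotlib 3.10.9 were used, and the procedure was tested on simulated data. No test between groups was possible.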

Additional observations from a re-analysis of the deposited data

How the results depend on the processing

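Of 109 member values over 11 alternatives, 105 moved by less than 1.5-fold. No member past 4-fold changed sign, but Stat3 did in 1 setting, Il6st in 3 and Stat5a in 3. The 4 that moved were Osmr, at 1.75 with normexp and 5.26 without the bound, and Stat3, at 0.41 with the median of its probes and -0.24 with the probe printed in the most spots, a choice made after the data were seen. The number of members at least 4-fold higher was 1 with normexp, 1 when limited to genes measured on both arrays and 1 at 10-fold, where Socs3 passed alone, and it was 2 under the other alternatives at 4-fold. The number at least 4-fold lower was 0 throughout. The scaling also moved the median over genes above background on both, which was -0.19 as reported, -0.23 with normexp, -0.22 with median scaling, -0.11 after quantile normalization, 0.07 with Gapdh and -0.37 in the deposited table. Socs3 lay between 4.12 and 4.41 above that median in each. Over all genes, 1309 were at least 4-fold higher and 1304 lower as reported, and 612 and 660 with normexp. The share of higher calls was 50.1% as reported, 62.1% with Gapdh (1650 and 1006), 48.1% with normexp, 48.8% with median scaling and 46.5% after quantile normalization, and the deposited table gave 1130 higher and 1563 lower. No paired analysis was possible because there is 1 array per group, which also left no array to leave out and no slide block to fit. Signals under 27.8 in MHs or 18.4 in Sox9+EpCAM- cells could not be measured.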
